A study of Mus musculus with 4 samples.

Results

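The 10 genes of heart muscle were followed on liver arrays, because most of them stood out on 1 of the arrays. The 10 members are *Myl2*, *Myl3*, *Myl4*, *Myl7*, *Nppa*, *Sln*, *Myh6*, *Actc1*, *Tnnt2* and *Tnni3*, out of 36161 gene names on the array, and they were chosen by their measured signal, so that their high values are given as a description and carry no test. The probes were found by gene name among the non-control spots, which gave 11 probes in 20 spots. Liver RNA came from C57BL/6J mice labelled as embryonic day 20, microsomic (M, small for the colony, with no genetic cause known) or control (C), of each sex. Of each of the 4 groups 1 array is at hand, named CF and CM for females and males of the control class and MF and MM for those of the microsomic class. The labels give no allele and no treatment, and the groups differ in size class and sex. The methods give newborn C57BL/6 N mice and several experiments per group, and whether an array holds RNA of 1 or of several animals is not stated. A group without a second array gives no spread between animals, so no difference between 2 single groups can be tested and the number of arrays limits the precision.

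Heart muscle contracts through thick filaments of myosin and thin filaments of actin, which troponin and tropomyosin open to myosin when calcium rises. Atria and ventricles build the same machine from partly different proteins. Ventricular myosin carries the light chains encoded by *Myl2* and *Myl3*, and atrial myosin those of *Myl7* and *Myl4*, while *Myh6*, *Actc1*, *Tnnt2* and *Tnni3* encode the alpha heavy chain, cardiac actin and cardiac troponins T and I. *Nppa* encodes the atrial natriuretic peptide, a hormone that fetal ventricles make as well, and *Sln* encodes sarcolipin, an inhibitor of the calcium pump of the sarcoplasmic reticulum. Liver cells do not have sarcomeres.

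The array measures each gene by probes of 60 bases, and 4 member probes that lie in coding sequence are shown, in lower case and 5′ to 3′ as in the array annotation (build mm9), because they include genes of both behaviours on the CF array. The *Tnnt2* probe (A_51_P338262, chromosome 1, 137747976 to 137748288, plus strand) and the *Tnni3* probe (A_51_P386983, chromosome 7, 4472043 to 4472102, minus strand) were bright on CF, and the *Myl7* probe (A_65_P10195, chromosome 11, 5798186 to 5798435, minus strand) and the second *Myh6* probe (A_55_P2140453, chromosome 14, 55584132 to 55584191, minus strand) were not. The *Tnnt2* and *Myl7* probes cover more genome than their length, since each crosses an intron. No probe of another gene shares a run of 20 bases with any of the member probes.
Tnnt2: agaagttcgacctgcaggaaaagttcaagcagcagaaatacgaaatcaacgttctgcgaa
Tnni3: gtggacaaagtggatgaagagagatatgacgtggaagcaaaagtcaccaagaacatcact
Myl7: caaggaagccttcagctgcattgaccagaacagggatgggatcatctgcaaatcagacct
Myh6, second probe: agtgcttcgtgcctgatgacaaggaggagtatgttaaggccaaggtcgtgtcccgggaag

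Signals are given as log2 of the processed signal minus log2 of the 75th percentile of the array, so that 0 is the 75th percentile, and a value is compared with that of the same probe on another array, never with another probe. A probe counts as measured on an array where the scanner software called it well above background. Where it was not, its value is replaced by the limit of that array, or by its own signal where that is higher, and the difference is then a lower bound. The 10 hepatocyte markers, *Alb* and *Afp* among them, were well above background on all 4 arrays. Between 56.1% and 65.3% of the spots were well above background on an array, and the 75th percentile of the processed signal lay between 628 and 925. By their position on the slide, M and C arrays lie in different columns and the sexes in different rows. CF was the array on which the heart genes stood apart, with a median of 6.82 (log2) above the mean of the other arrays over the members, against -0.34 on CM, -2.59 on MM and -2.97 on MF. Each result below that includes CF rests on this array, and the comparisons without it are MM vs CM and MM vs MF. The labels give whole liver for CF as for the others, and heart tissue in that sample cannot be told apart here from heart genes expressed in liver, which bears on every CF value.

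Both ventricular light chains were far higher on CF than on any other array. *Myl2*, the regulatory light chain of the ventricle (chromosome 5, 122556732 to 122556791), had a log2 signal of 5.76 on CF, -1.13 on CM, -4.63 on MF and -3.75 on MM. In processed signal this is 36565, 287, 36.0 and 68.8, so CF was 1343-fold above MF, 727-fold above MM and 118-fold above CM. CF was high, CM was next, and both M arrays were low. *Myl3*, the essential light chain of the ventricle and of slow skeletal fibres (chromosome 9, 110672238 to 110672297), had 5.64 on CF, 0.13 on CM, -2.39 on MF and -2.79 on MM. It was 262-fold higher on CF than on MF, 346-fold higher than on MM and 45.6-fold higher than on CM. Again CF was highest and CM next.

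The general heart genes followed the ventricular ones. *Myh6*, the fast myosin heavy chain that dominates adult mouse ventricle and all atria, had on its brightest probe (A_55_P2173952, chromosome 14, 55560774 to 55560833) a log2 signal of 4.76 on CF and -0.89 on CM, and was not well above background on MF (-5.46) and MM (-4.42). CF was 50.2-fold above CM, at least 1194-fold above MF and at least 581-fold above MM. *Actc1*, cardiac actin (chromosome 2, 113873064 to 113873123), had 5.59 on CF, -0.56 on CM, -3.44 on MF and -2.55 on MM, and was 70.9-fold higher on CF than on CM. As for *Myl2*, CM lay between CF and the M arrays. *Tnnt2*, which ties troponin to tropomyosin, had 4.34 on CF, -1.47 on CM, -1.59 on MF and -1.80 on MM, and CF was 56.3-fold above CM. Here the 3 other arrays lay together. *Tnni3*, the inhibitory subunit of the adult heart, had -2.62 on MM, 3.42 on CF and -2.92 on CM and was not well above background on MF (-5.67). CF was 65.7-fold above MM, the highest of the other arrays, and at least 542-fold above MF.

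The atrial genes split. *Nppa* (chromosome 4, 147376024 to 147376083) had 2.23 on CF, -3.38 on CM, -4.56 on MF and -4.86 on MM, and was 48.8-fold higher on CF than on CM. Its probe is the only member probe printed more than once, at 10 spots, of which 8 without an outlier flag were used. Over these 8 spots the log2 SD was 0.11 on CF, 0.54 on CM, 0.67 on MF and 0.66 on MM, which is the spread within an array, not between animals. The lowest spot on CF, 2.01, was above the highest on any other array, -3.00.

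**Figure D1:**
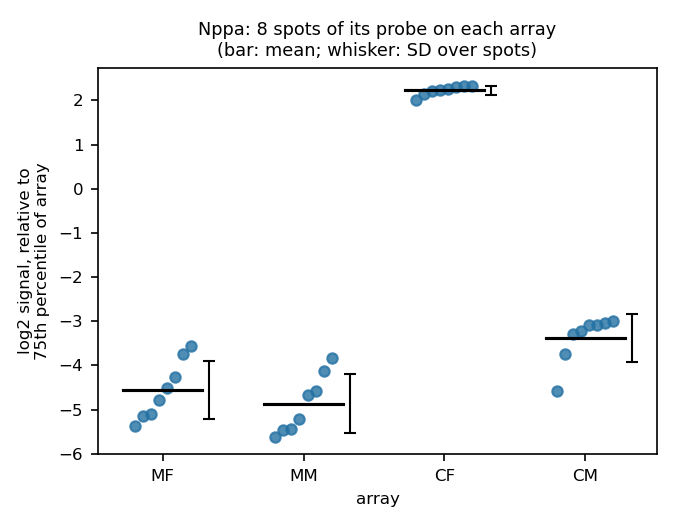
Log2 signal of the 8 spots of the *Nppa* probe on each array (points), with their mean (bar) and SD over spots (whisker). The CF spots lie between 2.01 and 2.34 and the spots of the other arrays between -5.61 and -3.00.

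*Myl4*, the light chain of atrium and embryonic heart (chromosome 11, 104448441 to 104448500), was bright on every array, with 1.78 on CF, 1.70 on CM, 0.70 on MF and 0.94 on MM. It stood higher on the C arrays than on the M arrays, with CF 2.12-fold above MF and CM 1.69-fold above MM, and CF and CM differed by 0.08 (log2). *Myl7*, the regulatory light chain of the atrium, had -2.05 on CF, -3.27 on CM, -1.97 on MF and -2.58 on MM, so that CF did not stand apart and CM was lowest. *Sln* (chromosome 9, 53701574 to 53701633) was well above background on MM alone (-3.53) and had -5.85 on MF, -6.71 on CF and -4.59 on CM, so no CF value can be compared for it.

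**Figure D2:**
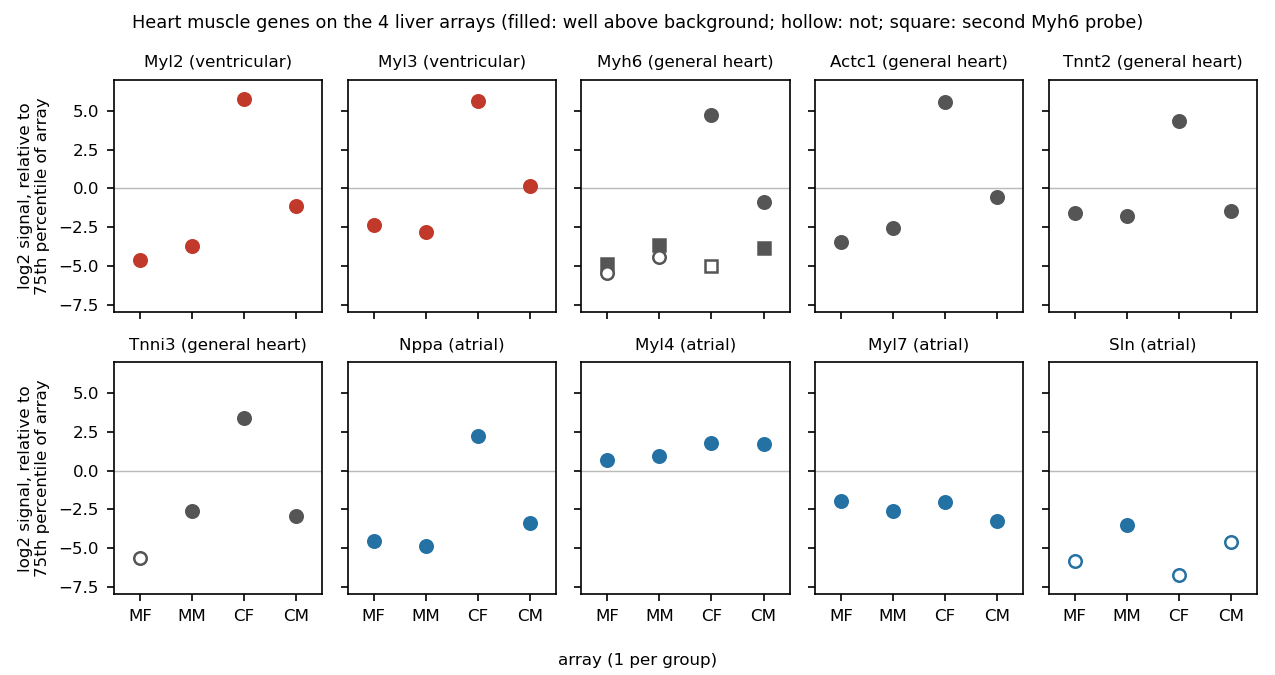
Log2 signal relative to the 75th percentile of the array (vertical axis) on the 4 arrays (horizontal axis), 1 panel per gene, with filled points well above background, hollow points not, and squares for the second *Myh6* probe. In 7 panels CF lies far above the other arrays, as for *Myl2* at 5.76 against -1.13 on CM, while *Myl4*, *Myl7*, *Sln* and the second *Myh6* probe show no such point.

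To set the 10 genes beside all others, the excess on CF was taken, the log2 signal on CF minus the highest of the other 3 arrays, for the 22703 genes well above background on CF. The excess was 6.89 for *Myl2*, 6.15 for *Actc1*, 6.04 for *Tnni3*, 5.81 for *Tnnt2*, 5.65 for *Myh6*, 5.61 for *Nppa* and 5.51 for *Myl3*, against 0.08 for *Myl4* and -0.08 for *Myl7*. By rank *Myl2* was 2nd, the other 6 high genes lay between rank 6 and rank 16, *Myl4* was at 4579 and *Myl7* at 6838. The excess of *Myl4* and *Myl7* is near 0 and its sign depends on the scaling: *Myl4* had -0.02 with quantile normalization and *Myl7* had 0.08 with normexp correction before it. Thus 7 of the 9 members measured on CF were over 1.5-fold above each other array, beside 4.77% of all genes, and since this contrast chose the members nothing is read from that count. The median excess was 6.20 for the ventricular genes (2 of 2 past 1.5-fold), 5.93 for the general genes (4 of 4) and 0.08 for the atrial genes (1 of 3 measured), against -0.38 over all genes. Of the 22 genes with an excess over 32-fold, 7 were members, 12 were other listed heart genes and 3 were neither. Of the 84 over 8-fold, 7 were members, 23 were other listed heart genes and 54 were neither. Members and lists were chosen with results of these arrays known, so these counts are not independent evidence. The largest excess, 129-fold, was that of a probe to which the annotation gives no gene name (A_55_P2093231), named here after its value was seen.

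**Figure D3:**
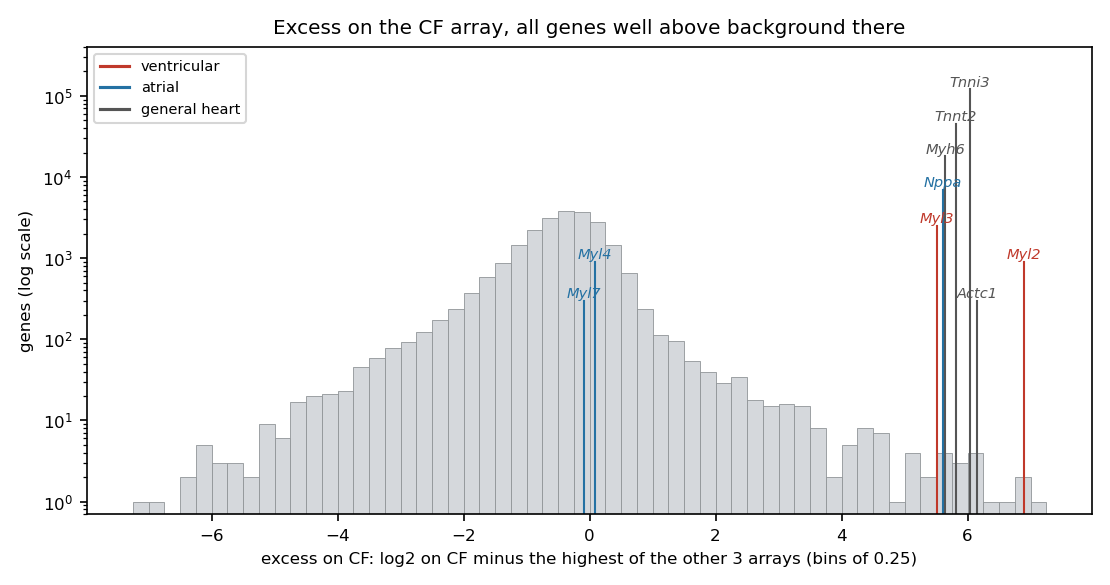
Number of genes (vertical axis, log scale) by excess on CF (log2, bins of 0.25) for the 22703 genes well above background there, with coloured lines at the members, whose heights only keep the names apart. *Myl3*, *Nppa*, *Myh6*, *Tnnt2*, *Tnni3*, *Actc1* and *Myl2* lie from 5.51 to 6.89, in the far right tail, and *Myl4* and *Myl7* lie at the centre.

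Among the 7 genes high on CF, the difference varied less against CM than against the M arrays, where some values are lower bounds. This contrast in spread was not tested. CF minus CM ran from 5.51 to 6.89, a range of 1.38 (log2), with every value measured on both arrays. CF minus MF ran from 5.93 to 10.39, 5 of 7 measured, and CF minus MM from 6.04 to 9.51, 6 of 7 measured. CM itself was over 1.5-fold above both M arrays for 5 of the 7 genes (*Myl2*, *Myl3*, *Myh6*, *Actc1* and *Nppa*), beside 19.7% of all genes. The median was 1.99 (log2) over the 7 and -0.14 over all genes. *Tnnt2* and *Tnni3* were the other 2. The 7 were chosen by their signal on these arrays, so this count is a description and not independent evidence. *Nppa* was dim, with a processed signal of 60.2 on CM, 38.0 on MF and 31.8 on MM.

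**Figure D4:**
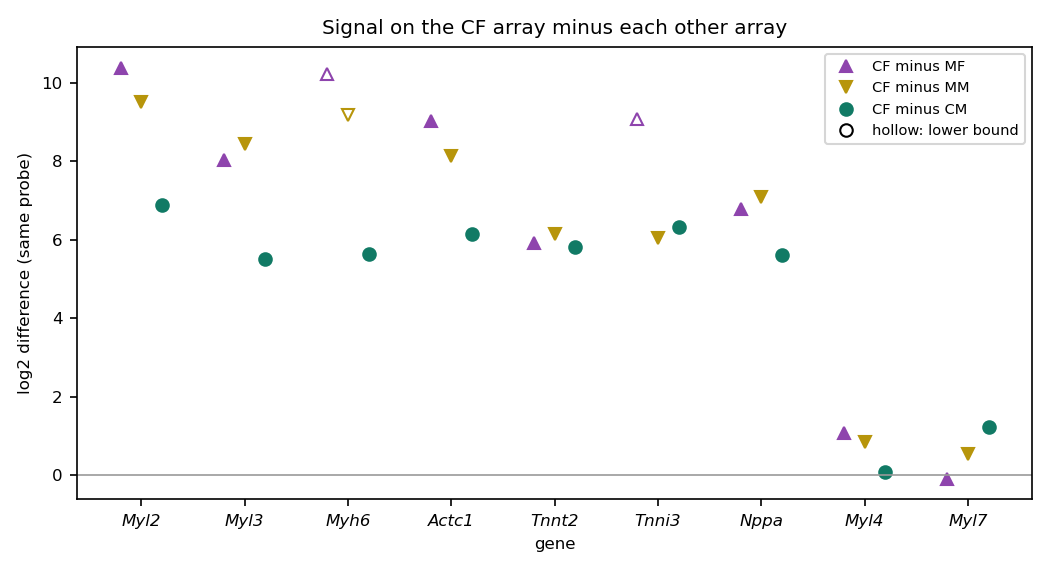
Log2 signal on CF minus that on MF, MM and CM (vertical axis) for the same probe of each of the 9 genes measured on CF, with hollow symbols where the value is a lower bound. The 7 genes to the left have differences of at least 5.51 from each array, with CF minus CM within 1.38 of each other, while *Myl4* and *Myl7* stay between -0.08 and 1.22.

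The study asked what differs between microsomic and control livers within each sex and between the sexes. Between MF and CF, 8 of 9 members compared were over 1.5-fold lower in MF, the exception being *Myl7*, *Sln* was not measured on either array, and 0 were higher, beside 21.1% of all genes lower and 19.9% higher. Their median difference was -8.03 (log2), against -0.06 over all genes. Between CM and CF, 8 of 9 were lower in CM (all but *Myl4*) and 0 higher, beside 19.7% lower and 26.6% higher of all genes, with a median of -5.65 against 0.03. MF vs CF and CM vs CF share the CF array, so that their counts are not independent of each other.

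In MM vs CM, the comparison of size classes that does not use CF, most members were lower in the microsomic array, with smaller differences. The members were chosen by their signal on these arrays, MM and CM included, so this count is a description and not independent evidence. There 6 of 10 members were over 1.5-fold lower in MM, beside 23.1% of all genes, and 2 higher, beside 17.7%, with a median of -1.12 against -0.01. Lower in MM were *Myl2* (6.14-fold), *Myl3* (7.60-fold), *Nppa* (2.79-fold), *Actc1* (3.98-fold), *Myl4* (1.69-fold) and *Myh6* (at least 11.6-fold). Of these *Nppa* was dim, with a processed signal of 31.8 on MM and 60.2 on CM and a log2 SD over spots of 0.66 and 0.54. Higher in MM were *Myl7* (1.61-fold) and *Sln* (at least 2.09-fold), both atrial genes, while the atrial genes *Nppa* and *Myl4* were lower. *Sln* was not well above background on CM, and *Myl7* did not reach 2-fold. *Tnnt2* and *Tnni3* had differences of -0.33 and 0.30, short of 1.5-fold.

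Between the microsomic sexes, MM vs MF, 4 of 9 members were over 1.5-fold higher in MM, beside 28.9% of all genes, and 1 lower, beside 20.5%. *Myl2* and *Actc1* were each 1.85-fold higher in MM, *Tnni3* at least 8.26-fold and *Sln* at least 5.02-fold, and *Myl7* was 1.54-fold lower. The median over the members was 0.24 (log2) and that over all genes 0.12. The *Myl2* and *Actc1* differences rest on 1 spot per array. On both arrays *Myl2*, *Actc1* and *Tnni3* were far below their CF signal.

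A limma fit over all 4 arrays, with size class and sex as its terms and 1 residual degree of freedom, tested 19303 genes for a change common to both sexes. With Benjamini-Hochberg adjustment 0 genes had an adjusted p under 0.05 (0%, smallest adjusted p 0.964) and 853 had an unadjusted p under 0.05, which is 4.42%. No p is given for the members, which were chosen from these values. Of 32 other listed heart genes in the fit, 12 had an unadjusted p under 0.05, all 12 lower in M, and 0 passed the adjustment. These lists were drawn up with results of these arrays known, so the 12 are not independent evidence. The fit includes CF, and the difference was unequal in the sexes. Over the other listed heart genes compared in each pair, the median was -2.18 (log2) for MF minus CF and -0.32 for MM minus CM.

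Probes of the same gene did not always go together. Of the 36 other listed heart genes over 1.5-fold above every other array on CF, 7 had several probes. In 5 of these, several probes were well above background on CF, and in all 5 every such probe passed 1.5-fold. In 4 of the 7, a probe was not well above background on CF. *Myh6* has a second probe, shown above, that starts at base 308 of its transcript, against base 6003 for the first. It had -4.91 on MF, -3.68 on MM and -3.88 on CM and was not well above background on CF, with a processed signal of 21.1 there against 18288 for the first probe. Among the other listed heart genes, *Actn2*, *Ttn* and *Smpx* had the high signal on a probe nearer the 3′ end of the transcript (starts 2515, 101578 and 528) and were not well above background on CF at a probe further from it (1240, 2094 and 78), whereas *Trdn* went the other way (excess at least 2.40 at 892 and 1.92 at 962, not well above background at 2262). *Ttn* did not follow the order throughout, since its probe at 93881 was not well above background on CF and that at 33226 was, with an excess of at least 0.69. *Tpm1*, the tropomyosin gene that muscle and non-muscle cells splice differently, had an excess of -0.20 on its brightest probe and of 4.19 and 3.25 on probes that start at 1051 and 1065. Its probes that start at 659 and 1035 had 0.42 and -1.19. These genes were picked after their values were seen, and the part of probe position in the differences was not tested. The *Myl7* probe starts at base 129, the lowest start among the probes that represent a member.

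The other heart genes, in lists by role, stood higher on CF mainly in the list of sarcomere genes and that of energy and stress. The lists here and below were drawn up with results of these arrays known, so their counts are a description and not independent evidence. Over 65 genes, 57 were well above background on CF and 36 of these were over 1.5-fold above every other array, with a median excess of 1.46, beside the 4.77% and -0.38 of all genes. An excess over an array on which the gene was not well above background is a lower bound and is given as at least that value. The summed signal of the 65 genes, in units of the 75th percentile, was 139.7 on CF, 30.1 on CM, 22.4 on MF and 21.8 on MM. Of the sarcomere genes 12 of 15 passed 1.5-fold (median 4.03), led by *Mybpc3*, the cardiac myosin binding protein, at 6.44, *Myom2* at least 5.36 and *Tnni1*, the troponin I of fetal heart and slow muscle, at 5.02. *Mybphl*, a myosin binding protein most abundant in atrium, had -1.23. Of the genes of energy and stress 14 of 15 passed (median 4.64), with *Cox8b*, a muscle subunit of cytochrome oxidase, at least 6.84, *Ankrd1* at least 6.56, *Mb*, myoglobin, at 6.08, *Ckmt2* at least 5.99 and *Nppb*, the second natriuretic peptide, at 5.95.

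Calcium and conduction genes divided. *Pln*, phospholamban, which inhibits the calcium pump in the ventricle as sarcolipin does in the atrium, had an excess of 6.13, *Casq2*, the calcium store protein, 4.31 and *Ryr2*, the calcium release channel, at least 3.06, and 5 of 9 measured genes passed, with a median of 0.74. *Hcn4*, the pacemaker channel, was not well above background on CF. Of the transcription factors 3 of 6 passed (median 0.32): *Nkx2-5* at 2.42, *Tbx5* at least 0.88 and *Hand2* at 0.70, while *Gata4* and *Gata6*, which liver expresses as well, had -0.28 and -0.06. The difference between the lists was not tested.

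The chamber lists outside the members gave few high genes. Of the other ventricular genes 2 of 6 measured passed, *Myh7*, the slow myosin heavy chain of the fetal ventricle, at 5.31 and *Irx4*, a transcription factor of the ventricle, at least 1.93. *Hey2*, also of the ventricle, had -2.45, with its highest signal on CM. Of the other atrial genes 0 of 6 measured passed on their brightest probe (median -0.29), from *Bmp10* at -1.83 to *Kcnj5* at 0.09. A second probe did pass for the atrial gene *Nr2f1* (0.79, against -0.28 on the brightest). The same held for the ventricular gene *Lbh* (0.64, against -0.78), so both chamber counts depend on the probe taken. *Kcnj3* was not well above background on CF. Together with *Myl4*, *Myl7* and *Nppa*, 1 of 9 atrial genes measured on CF passed on its brightest probe, *Nppa*, beside 4.77% of all genes. Members and lists were chosen with these values known, so nothing is read from that count. Some of the atrial genes had much signal on every array, where a small rise could go unseen. These were *Myl4* (at least 0.70), *Nr2f1* (at least -0.55) and *Dkk3* (at least -0.89). Others did not, as *Bmp10* (at most -2.13). The difference between the chambers was not tested.

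**Figure D5:**
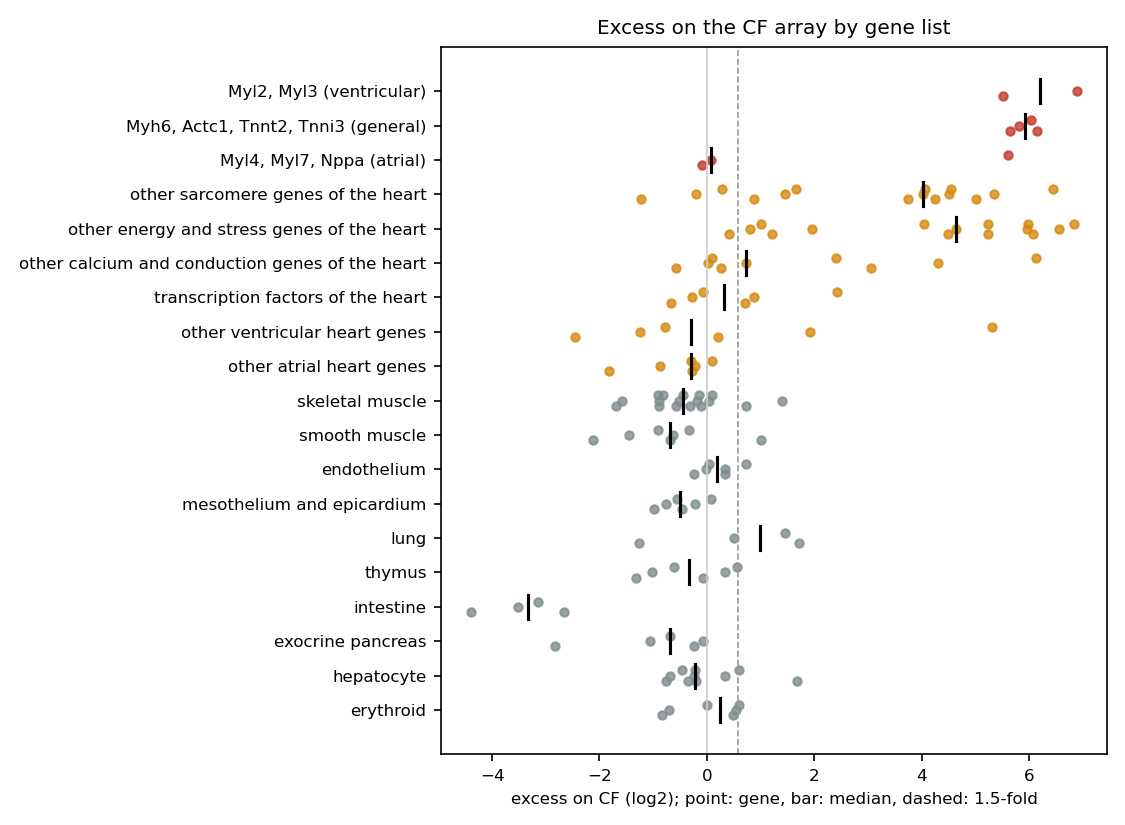
Excess on CF (log2, horizontal axis) of each gene well above background there (points) by gene list, with the median of the list (bar) and 1.5-fold (dashed line), members in red, other heart lists in orange and other tissues in grey. The ventricular and general members and the lists of sarcomere and of energy and stress have medians of 4.03 or more, and the skeletal muscle list has a median of -0.44.

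Markers of other tissues were compared in the same way, since several heart genes are shared with skeletal muscle. Of the skeletal muscle genes 2 of 17 measured passed, *Myh8* at 1.40 and *Actn3* at least 0.73, with a median of -0.44. Their summed signal was 5.80 on CF, 5.28 on CM, 3.94 on MF and 5.56 on MM. The fast muscle genes *Mylpf*, *Myh1* and *Myh4* and the regulator *Myog* were not well above background on any array, which is not particular to CF. Smooth muscle had 1 of 7 (*Des*, which cardiac muscle shares), endothelium 1 of 6, mesothelium and epicardium 0 of 6, thymus 0 of 6, intestine 0 of 4, exocrine pancreas 0 of 5 and erythroid cells 1 of 6. Among lung genes 2 of 4 passed, the surfactant genes *Sftpb* and *Sftpa1*, at least 1.45 and 1.71. The lung list summed to 8.10 on CF, 5.19 on CM, 5.80 on MF and 4.64 on MM, and *Sftpc*, *Scgb1a1* and *Ager* were not well above background on CF. Its part in the result was not tested. Of the hepatocyte markers 2 of 10 passed, *Tat* and *Apoa2*. In bulk RNA, a larger number of cells of a type and more RNA per cell cannot be told apart.

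Separate rules fixed the non-member genes set beside the members. By the largest excess among genes with a symbol, which leaves out probes that carry only a probe name or a region as their name, these were *Cox8b*, *Ankrd1*, *Mybpc3*, *Pln*, *Mb*, *Ckmt2*, *Nppb*, *Myom2*, *Myh7* and *Fabp3*, and all 10 are in the heart lists. Of the probes left out, 2 had an excess above that of *Myom2*. The heart lists were drawn up with results of these arrays known, so their overlap with these genes is not independent evidence. By the smallest root mean square distance between centred log2 profiles over the 4 arrays, measured to the mean profile of the 9 members well above background on CF, among 14986 genes, they were *Fabp3* (0.21), *AK158632*, *T*, *Gm5953*, *Gm4230*, *Tcap*, *Tnni1* (0.34), *Cox6a2* (0.37), *Vmn1r229* and *Mak* (0.40). *Fabp3*, the fatty acid carrier of heart, *Tnni1* and *Cox6a2* were well above background on all 4 arrays. The other 7 were so on CF alone, so that their likeness rests on signals at background on the other arrays.

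The position of the spots on the array was checked as well. The 20 member spots lie between rows 2 and 370 and columns 7 and 149, and 0 were saturated on any array. The spots around each of them, between 16 and 23 in number, had a median excess on CF between -1.07 and 0.03, so that their neighbours were not raised there.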

How the data were processed

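The authors prepared total RNA of whole liver, labelled it with Cy3, hybridized it to 8x60K mouse arrays (1 colour) and read the scans with Agilent Feature Extraction 10.7.3.1. The deposited values are its processed signal, a linear intensity made by subtracting a fitted background surface and dividing by a detrending factor, with no scaling between arrays. The table of values equalled it in all 62976 spots.

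Each array was centred on the 75th percentile of its 59305 non-control spots, on the log2 scale. A spot that the software flagged as an outlier on 1 array was removed on every array (1754 spots), spots of a probe were averaged and a gene took its brightest probe, which left 35577 genes. A gene was compared where 1 array of a pair was well above background, and counted past 1.5-fold. The limits were log2 -5.48 on CF, -4.69 on CM, -6.03 on MF and -5.83 on MM. limma 3.58.1 (R 4.3.3) was tested on simulated data first. Named genes are the members, the listed genes and 10 non-members each by largest excess and by nearest profile. The members and lists were chosen with earlier results of these data known. Alternatives were other scaling (median, quantile, none), normexp (offset 50), removal of trends with position or GC content, flagged spots kept, other filters on dim probes, the mean over probes and 2-fold. Some listed genes are not reported here by name.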

Additional observations from a re-analysis of the deposited data

Results flagged for a closer look

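Males and females differed in opposite directions in the 2 size classes for 3 genes, and this difference was not tested, since each group has 1 array. The log2 difference of *Myl2* was -6.89 for CM minus CF and 0.89 for MM minus MF. For *Actc1* the same differences were -6.15 and 0.89, and for *Tnni3* they were -6.34 and 3.05, the last a lower bound. The negative values all rest on the CF array. The positive values rest on 1 spot per array, with processed signals on MF and MM of 36.0 and 68.8 for *Myl2* and 82.4 and 158 for *Actc1*. *Tnni3* was not well above background on MF. The 8 spots of the *Nppa* probe, at 38.0 on MF and 31.8 on MM, had a log2 SD of 0.67 and 0.66, so differences of 0.89 between single spots are uncertain.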

How the results depend on the processing

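Of the member counts, medians and the limma count, 110 values under an alternative stayed close to those reported and 29 moved, and 0 values past 1.5-fold changed direction. The members over 1.5-fold lower in MF vs CF, MM vs CM and CM vs CF stayed within 1.5 times of the reported count under every alternative. The median excess on CF over all members was 6.03 with arrays centred on the median, 5.88 with quantile normalization and 4.71 with normexp and quantile normalization. In the same order it was 6.62, 6.41 and 5.93 for the ventricular genes. For the general genes it was 6.14 with centring on the median, 5.06 with normexp and 5.67 without scaling, and for the atrial genes 0.50 with centring on the median and 0.39 with normexp. The atrial median, 0.08 as reported, lay just below 0 with quantile normalization (-0.02) and with no filter (-0.0012). Over the other heart genes it was 0.92 with normexp, 1.06 without scaling, 1.11 with no filter on dim probes and 1.21 with the mean over probes. Members higher in MM vs CM numbered 1 with the position trend removed, with both arrays well above background and at 2-fold. Members higher in MM vs MF numbered 2 with both arrays well above background and at 2-fold. Members lower in MM vs MF numbered 2 with centring on the median or quantile normalization, and 0 with normexp, without scaling, with the position trend removed and at 2-fold. With no filter, 1 was higher in MF vs CF and 1 in CM vs CF. Median centring moved the median of all genes to -0.37 in CM minus CF and 0.21 in MM minus CM, and the values without scaling had 0.52 in MM minus CM and 0.34 in MF minus CF. The mean over both probes gave *Myh6* an excess of 2.26, as the second probe was low on CF. limma called 10 genes without scaling. The other causes were not tested. No paired analysis was possible because each group has 1 array, beyond the sex term that the limma fit already holds. A change in a dim gene is limited by the signal over background.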
